A study of Rosa hybrid cultivar with 12 samples.

Results

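This comparison set rose buds given 100 mM sucrose and no auxin against rose buds given 10 mM sucrose and no auxin. It used 6 of the 12 libraries of the series, 3 per group, taken by their labelled treatment. The plant was a wild-type hybrid rose cultivar, and messenger RNA was sequenced from polyA-selected, stranded, paired-end libraries. The tissue label says flower bud while the series title speaks of budburst, so the kind of bud is not settled. Neither group received NAA, a synthetic auxin, and no group in the series went without sucrose, so the comparison is of a higher with a lower dose. The other 6 libraries had the same sucrose doses plus 1 µM NAA. They helped to decide which genes were tested, to scale the libraries and to estimate the spread. They also gave the sucrose effect with auxin, set beside the one without, and entered a test of harvest dates. Each group held 1 library harvested on 20 June, 1 on 20 August and 1 on 20 October, and libraries of the same date carry the same replicate number. The series' design text speaks of 2 biological replicates while the titles number 3, and the titles were followed. Nothing in the labels says whether the libraries came from separate plants. Each n of 3 therefore counts libraries, and p-values measure only the spread between these libraries.

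Sucrose is the main sugar that plants move through the phloem. In a bud it serves as carbon supply and also acts as a signal: in rose stem segments grown on medium, sugar promotes the outgrowth of axillary buds. Auxin made in the growing shoot tip holds axillary buds back, in what is called apical dominance, and sugar and cytokinins act against that hold. Genes are given here by their IDs, since nothing used here pairs these IDs with names, products or sequences. For the same reason the labelled tissue was not checked against marker genes, and no pathway could be counted. In bulk tissue, fewer cells of a type and less RNA per cell cannot be told apart.

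Gene counts per library ran from 8229391 to 12068935 at 100 mM sucrose and from 9881297 to 15896711 at 10 mM. The number of genes at 1 CPM or more (CPM, with library sizes scaled by TMM to make libraries comparable) was 21558 to 21750 at 100 mM and 21438 to 21788 at 10 mM (two-sided exact permutation p = 0.9). The 100 most counted genes took 16.0% ± 0.748 of gene counts at 100 mM and 15.4% ± 0.383 at 10 mM (SD, n = 3 each, two-sided exact permutation p = 0.3). With 3 libraries against 3, the smallest p such a test can give is 0.1. Planting dates in the June set were 2 July at 100 mM and 2 May at 10 mM, which cannot be told apart from the dose, and the July date falls after the harvest. In the August and October sets both groups shared 1 planting date. In August this date also falls after the harvest, and in October it is the day of harvest itself. With NAA, planting dates in the June set were 2 August at 100 mM and 2 June at 10 mM. Whether the labelled planting dates are correct is not known here.

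A small part of the tested genes was called between the doses, and with all libraries more of these fell than rose. Of 24267 genes tested, 480 were called (1.98%), 174 higher at 100 mM sucrose (0.717%) and 306 lower (1.26%), at an adjusted p under 0.05 in edgeR's quasi-likelihood test. In the same test 3076 genes were at an unadjusted p under 0.05, and a gene not called is not shown to be unchanged. The genes that rose did so by a median log2 fold change of 1.87, with quartiles of 1.37 and 2.34. Those that fell had a median of -1.25, with quartiles of -1.83 and -0.89. A change of at least 2-fold, an absolute log2 fold change of 1, was reached by 159 of the 174 rising genes and 202 of the 306 falling ones, against 1451 of all genes tested. A change of at least 4-fold was reached by 78 rising and 65 falling genes. The median over all tested genes was 0.01. In all 480 called genes the 3 libraries at 100 mM lay on one side of the 3 libraries at 10 mM. Of all tested genes, 23.9% did so (10.8% on the higher side and 13.2% on the lower). It follows that all 3 same-date differences of the 480 had the fitted direction, which 42.8% of tested genes showed. Both counts describe the choice, since the same libraries had served to pick the genes.

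How many genes were called depended on the model and on single libraries. A fit with the replicate number, and so the harvest date, as a block raised the edgeR count to 1248 (5.14% of those tested), of which 409 were higher (1.69%) and 839 lower (3.46%), and it took in all 480. The 768 genes called with the block alone had a median absolute log2 fold change of 1.02 in that fit, against 1.47 for the 480 in the fit without the block. Leaving out replicate 1, 2 or 3 at 100 mM left 85, 80 and 124 genes called. Leaving out replicate 1 or 2 at 10 mM left 110 and 70, while without replicate 3 of that group, the October library, edgeR called 487, of which 376 were among the 480. Without any 1 of the libraries at 100 mM, falling genes no longer outnumbered rising ones: they made up 46.8% to 49.4% of the calls, against 63.7% with all libraries. Without any 1 of the libraries at 10 mM they still did, at 54.3% to 65.9% of the calls. By edgeR, 0 genes were called without the June libraries of all groups and 0 without those of August, with 2808 and 1619 genes at an unadjusted p under 0.05, and 210 were called without October. DESeq2, run on all libraries, called 981.

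**Figure D1:**
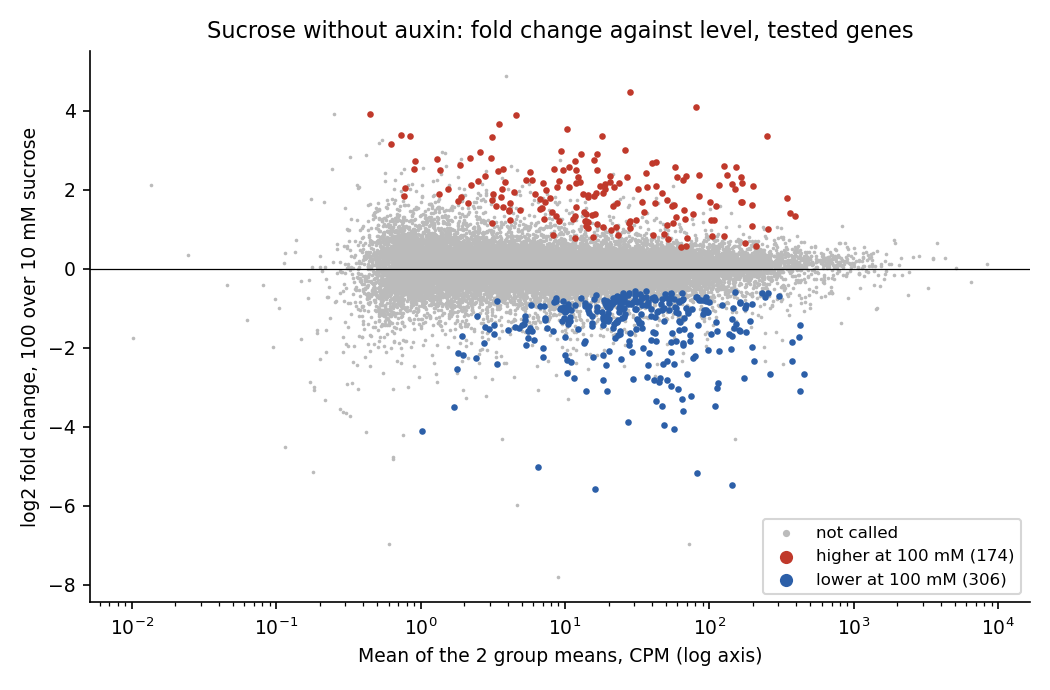
Log2 fold change of 100 over 10 mM sucrose without auxin (vertical axis) against the mean of both group means in CPM (horizontal log axis), 1 point per tested gene. Red points are the 174 genes higher at 100 mM and blue points the 306 lower ones; most blue points lie between -0.56 and -2, while the red ones sit further from 0, with a median of 1.87.

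Errors were wider for genes with few counts. Gene lengths are not known here, so CPM serves as a measure of read depth and not of transcript level between genes. The median SE of the log2 fold change was 0.33 for the 9560 genes whose higher group mean lay between 1 and 10 CPM, 0.19 for the 10542 genes between 10 and 100 CPM and 0.20 for the 2320 genes at 100 CPM or more. Rising calls made up 0.471% of genes in the lower of these ranges and 0.911% in the upper, and falling calls 0.324% and 1.95%. In the range from 100 CPM up there were 1.38% rising and 2.97% falling calls. Another 134 genes had a fitted change of at least 4-fold that was not called. Their median higher group mean was 2.59 CPM. Their median SE was 0.82, against 0.46 for called genes with changes of that size. The SE was derived from the same test that makes the call. Among changes of this size, a larger SE in genes not called therefore follows from the choice.

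The rising gene with the largest difference in group means was gene:RC1G0025000. It had 479.3, 437.1 and 460.5 CPM in June, August and October at 100 mM sucrose, against 35.8, 24.3 and 73.5 CPM at 10 mM. The groups were far apart, and within the lower dose the October library was the highest. Its mean was 458.9 ± 21.1 CPM at 100 mM and 44.5 ± 25.7 CPM at 10 mM (SD, n = 3 each), a log2 fold change of 3.36 (SE 0.432, edgeR adjusted p = 0.00452). The same-date ratio of 100 over 10 mM was 13.4 in June, 18.0 in August and 6.27 in October. This call held without any 1 of the 12 libraries (edgeR adjusted p = 0.00173 to 0.0369). It was lost with all June or all August libraries left out, at edgeR adjusted p of up to 0.115 and log2 fold changes of 3.10 to 3.94 over the 3 dates.

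A smaller rise was that of gene:RC2G0255200, whose same-date ratios of 100 over 10 mM followed the same order of dates. It stood at 525.1, 591.9 and 495.4 CPM in June, August and October at 100 mM sucrose, and at 132.8, 118.7 and 213.0 CPM at 10 mM. All libraries at 100 mM were above all libraries at 10 mM, and October again had the smallest gap. The mean was 537.5 ± 49.4 CPM at 100 mM and 154.9 ± 50.8 CPM at 10 mM (SD, n = 3 each), with a log2 fold change of 1.79 (SE 0.302, edgeR adjusted p = 0.0143). Its call was lost without replicate 1 or 2 of either group (edgeR adjusted p = 0.0619 to 0.0846), at log2 fold changes of 1.62 to 2.09 over all 12 fits with a library left out.

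Among falling genes, gene:RC5G0303500 had the largest difference in group means. It fell to 70.4, 107.4 and 87.3 CPM in June, August and October at 100 mM sucrose, against 630.0, 1248 and 397.7 CPM at 10 mM. The libraries at 100 mM lay close together, while those at 10 mM spread widely, with August highest and October lowest. Means were 88.4 ± 18.5 CPM at 100 mM and 758.6 ± 439.5 CPM at 10 mM (SD, n = 3 each), a log2 fold change of -3.10 (SE 0.544, edgeR adjusted p = 0.0161). The level was 8.94-fold lower at 100 mM in June, 11.6-fold lower in August and 4.56-fold lower in October. The call was lost without any 1 of the libraries at 100 mM and without replicate 2 at 10 mM (edgeR adjusted p = 0.0742 to 0.0832), while the log2 fold change ran from -3.42 to -2.55 over all 12 fits with a library left out.

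A like pattern was seen for gene:RC4G0267800. It had 103.2, 140.8 and 123.3 CPM in June, August and October at 100 mM sucrose, and 904.0, 1106 and 340.4 CPM at 10 mM. Here too the lower dose held the widely spread libraries, and its October library came nearest to the 100 mM group. The means of 122.4 ± 18.8 CPM at 100 mM and 783.5 ± 396.8 CPM at 10 mM (SD, n = 3 each) gave a log2 fold change of -2.68 (SE 0.522, edgeR adjusted p = 0.0247). Leaving out any 1 of the libraries at 100 mM ended its call, as did leaving out replicate 1 or 2 at 10 mM (edgeR adjusted p = 0.0827 to 0.113), with log2 fold changes of -3.05 to -2.35 over the 12 fits. Without any 1 date it was not called, and the fit without October gave -3.03 on the log2 scale (SE 0.528; adjusted p = 0.0533 by edgeR). With the replicate block, all 4 named genes were called, at edgeR adjusted p of 0.000585 to 0.00671.

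**Figure D2:**
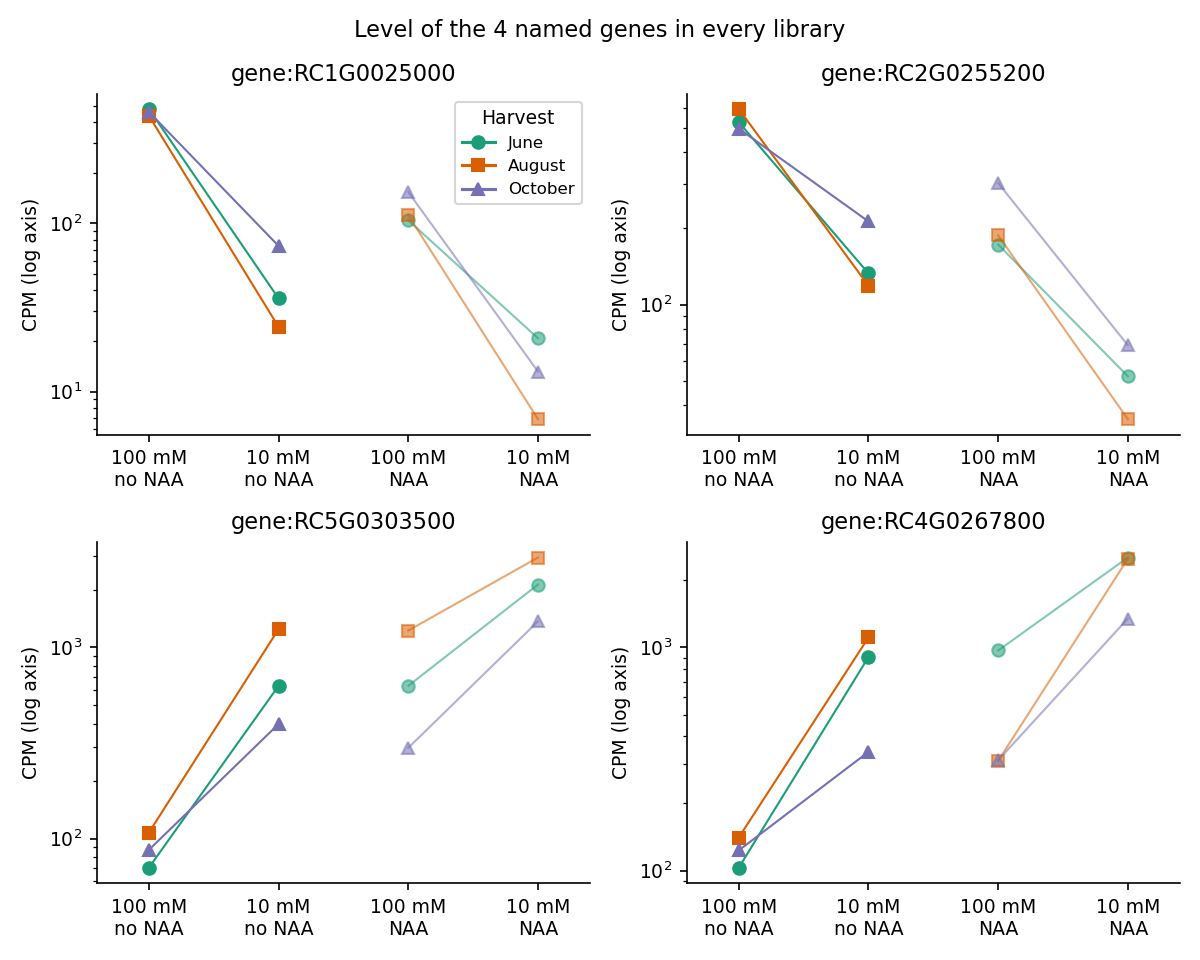
CPM of the 4 named genes (vertical log axis, its range set per panel) in every library, by treatment; each point is a library, colours and shapes mark the harvest, and lines join libraries of the same date. In gene:RC1G0025000 the libraries without NAA sit at 437.1 to 479.3 CPM at 100 mM and at 24.3 to 73.5 CPM at 10 mM, and in all 4 panels the October line without NAA is the flattest of the 3.

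The next genes in the same ranking changed less or lay lower. The rising genes ranked 3 to 10 had means of 234.8 to 561.8 CPM at 100 mM sucrose and 43.6 to 224.0 CPM at 10 mM, with log2 fold changes of 1.33 to 2.58. Their edgeR adjusted p was 0.00267 to 0.0322. The falling genes ranked 3 to 10 had means of 6.37 to 229.5 CPM at 100 mM and 279.5 to 645.3 CPM at 10 mM, with log2 fold changes of -5.46 to -1.42. Their edgeR adjusted p was 0.00267 to 0.0419. Ranking by difference in CPM favours genes with many reads, which include long genes.

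Called genes lay beside a gene called in the same direction, by ID number, more often than tested genes at large, though most did not. The ID numbers step by 100. Of the 148 rising genes with a tested gene at the next number on either side, 29 had a rising gene there (19.6%), while 1.05% of all 20429 tested genes with such a neighbour did. For falling genes the count was 31 of 256 (12.1%), against 1.86% of all. The rising genes formed 13 runs of 2 or more consecutive numbers and the falling genes 15, with a longest run of 3 in each direction. Whether these neighbours are similar in sequence is not known here, and reads of near-identical copies may be lost to multimapping, so the levels of such genes are uncertain. Over the 14970 pairs of tested genes with consecutive numbers, log2 fold changes correlated at Pearson r = 0.13 and Spearman rho = 0.11, across genes that share the same libraries.

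The run that holds gene:RC1G0025000 consists of it and the genes at both numbers before it. The gene 1 step before had 53.7 ± 4.04 CPM at 100 mM sucrose and 2.35 ± 2.03 CPM at 10 mM, and the gene 2 steps before had 152.3 ± 11.9 CPM at 100 mM and 8.76 ± 8.07 CPM at 10 mM (SD, n = 3 each). The log2 fold change of the nearer gene was 4.47 (SE 0.47) and that of the farther one 4.10 (SE 0.532), with edgeR adjusted p of 0.00267 and 0.00452. The run ended there, since the gene at the next number had 25.7 ± 0.414 CPM at 100 mM and 27.7 ± 2.26 CPM at 10 mM (SD, n = 3 each; edgeR adjusted p = 0.838). None of the tested genes within 2 numbers of gene:RC2G0255200, gene:RC5G0303500 or gene:RC4G0267800 was called (edgeR adjusted p = 0.355 to 0.926).

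Called genes were spread over all 8 ID prefixes, which the files give no meaning for. Rising genes made up 1.21% of tested genes with the prefix RC6G, at 42 of 3463, and 0.464% to 0.876% of those with the other prefixes. Falling genes made up 0.919% of the prefix RC7G and 1.76% of RC3G, with the others between. In RC6G alone rising genes outnumbered falling ones, at 42 against 37.

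Taken as a pool, the called genes held a modest share of all gene counts. The 174 rising genes took 1.19%, 1.24% and 1.06% of gene counts in June, August and October at 100 mM sucrose, and 0.339%, 0.329% and 0.469% at 10 mM. The 306 falling genes took 0.864%, 0.924% and 0.847% at 100 mM, and 2.47%, 2.98% and 1.97% at 10 mM. October libraries at 10 mM were nearest to the 100 mM level for both pools. Since the same libraries had served to pick the genes, the gap itself describes the choice. In the libraries with NAA, which entered the fit through its shared spread but not the contrast, the rising genes took 0.670% ± 0.078 at 100 mM and 0.263% ± 0.0398 at 10 mM, and the falling genes 2.17% ± 0.547 at 100 mM and 4.54% ± 1.22 at 10 mM (SD, n = 3 each). Replicate 1 of 10 mM sucrose with NAA stands apart, with 24.9% of its counts in its 100 most counted genes, and without it 616 genes were called without auxin.

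**Figure D3:**
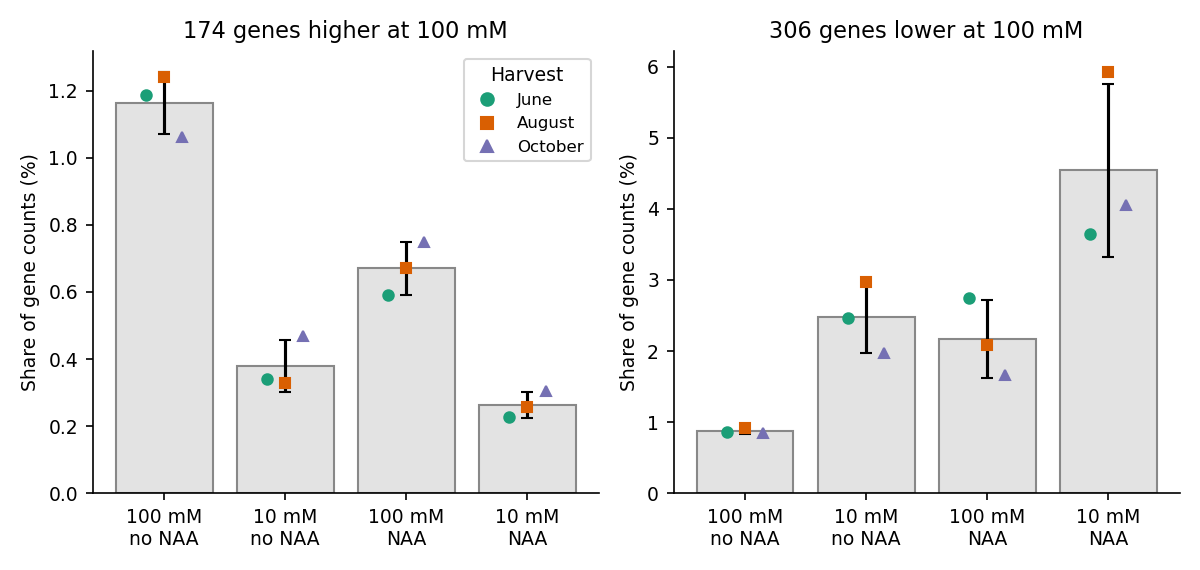
Share of gene counts (percent) taken by the 174 rising genes (left) and the 306 falling genes (right) in each group of 3 libraries; bars are means, error bars the SD, and points the libraries by harvest. Without NAA the rising genes take 1.06% to 1.24% at 100 mM and 0.329% to 0.469% at 10 mM, and the falling genes 0.847% to 0.924% at 100 mM and 1.97% to 2.98% at 10 mM.

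At 100 mM sucrose the libraries agreed more closely than at 10 mM on the genes that changed. The median coefficient of variation of the rising genes was 15.4% at 100 mM and 30.4% at 10 mM, and that of the falling genes was 12.8% at 100 mM and 17.3% at 10 mM. Over all tested genes it was 15.4% at 100 mM and 15.5% at 10 mM. The variation was larger at 10 mM for 135 of the 174 rising and 191 of the 306 falling genes, against 11995 of all 24267. The library at 10 mM that lay nearest to the 100 mM group was October's for 128 of the 174 rising genes (73.6%) and 227 of the 306 falling ones (74.2%). Over all tested genes it was October's for 39.3% of those fitted higher and 43.1% of those fitted lower. The library at 100 mM nearest to the 10 mM group was October's for 82 of the rising genes and 93 of the falling ones, and August's for 118 of the falling ones. The part of the lower means at 10 mM in the larger variation of rising genes was not tested.

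Harvest dates were then compared, each giving 1 difference between 100 and 10 mM. Over the 24267 tested genes, these log2 differences correlated at r = 0.64 between June and August, 0.29 between June and October and 0.37 between August and October. The dates share no library, but genes are not independent replicates. The overall size of the differences was alike: 2413, 2246 and 2343 genes differed by at least 2-fold in June, August and October. Among the called genes, October had the smallest of the 3 differences in 138 of the 174 rising genes (79.3%) and 196 of the 306 falling genes (64.1%). Over all tested genes October had the smallest difference in the fitted direction in 39.0% of those fitted higher and 39.3% of those fitted lower. The October library at 100 mM had 8229391 gene counts, with 16.9% in its 100 most counted genes. The October library at 10 mM had 15896711, with 15.2%. Rows naming no gene held 23.2% and 17.3% of these libraries. The part of such differences in the October pattern was not tested. Without auxin alone, 1 library per group and date leaves no residual degrees of freedom for a test of the dates. A fit over all 12 libraries, added after the data were seen, tested the sucrose effect by date over both auxin levels together, with 4 residual degrees of freedom. EdgeR called 0 of 24267 genes (0%) for any difference between dates, with 978 at an unadjusted p under 0.05 and a lowest adjusted p of 0.932. For October against the mean of June and August it called 0, with 953 and a lowest adjusted p of 0.301. These results do not show that the dates are alike. DESeq2 was not run on this fit.

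Nearly all genes chosen without a date had the chosen direction in that date. For each date, a fit on the other dates gave the 200 rising and the 200 falling genes with the smallest p. In June, 189 of the 200 rising genes and 200 of the 200 falling genes had the chosen direction, in August 195 and 199, and in October 190 and 194. Over all tested genes in June, 48.9% of differences were positive and 51.1% negative, and the other dates lay nearer to an even split. The median log2 difference of the rising genes was 1.54 in June, 1.75 in August and 1.06 in October, and that of the falling genes was -1.15, -1.53 and -1.06. The October choice was made on June and August alone, where the median was 2.06 for the rising and -1.84 for the falling genes. With 3 dates no exact test can give a p under 0.25, so these values are a description.

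**Figure D4:**
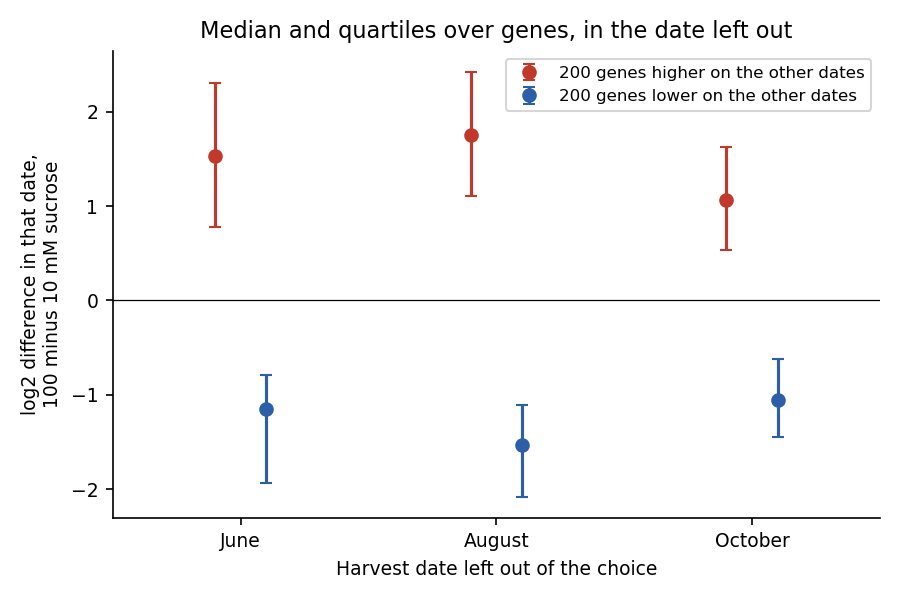
Log2 difference of 100 minus 10 mM sucrose in 1 harvest date (vertical axis) for genes chosen on the other 2 dates; points are medians over 200 genes and bars the quartiles over genes. Rising genes have medians of 1.54, 1.75 and 1.06, and falling genes of -1.15, -1.53 and -1.06, in June, August and October.

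With NAA present, nearly all of the called genes had a fitted sucrose effect of the same sign. The libraries with NAA did not enter the contrast that chose these genes, but both contrasts share 1 estimate of the spread. The sucrose effect with auxin was positive for 172 of the 174 rising genes, with a median log2 fold change of 1.48, and negative for 305 of the 306 falling genes, with a median of -0.97. Over all tested genes 49.3% of these effects were positive, with a median of -0.01. By edgeR, 101 of the 174 were also called higher with auxin, against 2.02% of tested genes, and 164 of the 306 were called lower, against 2.12%. The effect was smaller in size with auxin for 364 of the 480 genes. These had been chosen on their effect without auxin, so a smaller effect elsewhere says nothing of auxin.

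The fitted direction of each named gene was the same with auxin. With NAA, gene:RC1G0025000 had 123.3 ± 26.6 CPM at 100 mM sucrose and 13.6 ± 6.97 CPM at 10 mM (SD, n = 3 each). For gene:RC2G0255200 it was 220.7 ± 70.7 CPM at 100 mM and 52.2 ± 16.9 CPM at 10 mM (SD, n = 3 each). Both levels lay below those without NAA at the same dose. The falling gene:RC5G0303500 had 718.3 ± 470.2 CPM at 100 mM with NAA and 2154 ± 793.2 CPM at 10 mM with NAA, and gene:RC4G0267800 had 530.1 ± 378.8 CPM at 100 mM and 2119 ± 670.8 CPM at 10 mM (SD, n = 3 each). For gene:RC5G0303500 the libraries at 100 mM with NAA spread from 298.4 to 1226 CPM, and 1370 to 2956 CPM was the range at 10 mM with NAA. On the log2 scale, the sucrose effect with auxin came to 3.22 (SE 0.438, edgeR adjusted p = 0.0107) for gene:RC1G0025000 and 2.08 (SE 0.306, edgeR adjusted p = 0.0117) for gene:RC2G0255200. It was -1.999 for gene:RC4G0267800 (SE 0.508, edgeR adjusted p = 0.0491), and the -1.58 of gene:RC5G0303500 was not called (SE 0.513, edgeR adjusted p = 0.0932). The direct test of the difference between the effects gave an edgeR adjusted p of 0.963 to 0.988 for these 4 genes, which does not show that the effects are equal.

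EdgeR called no gene for a sucrose effect that differed between buds without and with auxin, while DESeq2 called a few. EdgeR gave 0 calls in 24267 genes. There were 834 (3.44%) at an unadjusted p under 0.05, and the lowest adjusted p was 0.963. With the replicate block 1683 were at an unadjusted p under 0.05, with a lowest adjusted p of 0.717, and without replicate 3 of 10 mM sucrose with NAA there were 2408, with a lowest adjusted p of 0.0538. Of the 480 genes called without auxin, 78 were at an unadjusted p under 0.05, but they had been chosen on an effect that enters this difference. DESeq2 called 1 gene, and 8 with the replicate block. The 1 gene, gene:RC7G0563600, was picked out after its values were seen. It had 342.0 ± 25.2 CPM at 100 mM and 169.5 ± 12.7 CPM at 10 mM without auxin (SD, n = 3 each), a log2 change of 1.01 (SE 0.136, edgeR adjusted p = 0.00504). With auxin the change was 0.19 on the log2 scale (SE 0.135; adjusted p = 0.411 by edgeR), and DESeq2 put the difference at 0.83 (adjusted p = 0.00374) while edgeR put it at 0.82 (adjusted p = 0.963).

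**Figure D5:**
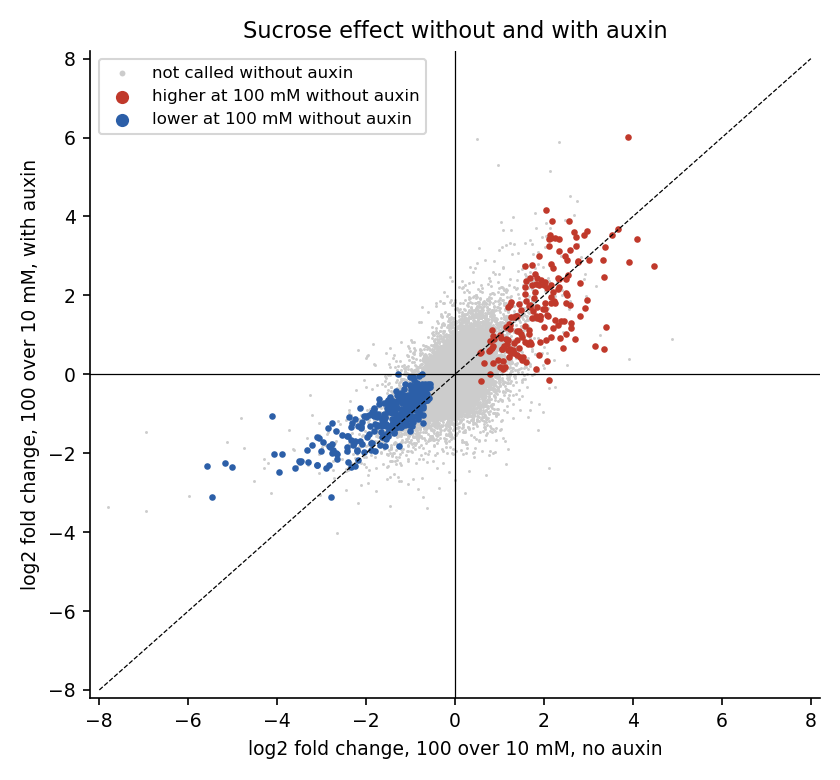
Log2 fold change of 100 over 10 mM sucrose with NAA (vertical axis) against that without NAA (horizontal axis), 1 point per tested gene; the dashed line marks equal effects. Red points are the genes higher at 100 mM without auxin, 172 of 174 above 0 on the vertical axis, and blue points those lower, 305 of 306 below 0.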

How the data were processed

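Messenger RNA libraries of rose buds were analysed, 12 in all and 6 in the contrast. The authors deposited raw whole-number counts per gene, 1 file per library, which are not normalised. Per the file headers, counts are given with strand ignored, forward and reverse; the reverse column was used, since it held most gene reads. The submitters' processing notes name TopHat2 and Bowtie2 without roles; the sources used here do not state the settings, the genome build or the annotation. Rows naming no gene (17.3% to 23.2% of a library) were dropped.

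The analysis used edgeR 4.0.16 in R 4.3.3: filterByExpr (minimum count 10, minimum total 15) left 24267 of 42307 gene IDs, followed by TMM scaling and a quasi-likelihood fit of 4 group means to all 12 libraries, with Benjamini-Hochberg adjustment over all tested genes. The call threshold was an adjusted p of 0.05. The edgeR test gives no SE, so each SE is the absolute log2 fold change divided by the square root of the F statistic. CPM uses TMM-scaled library sizes, and log2 CPM per date a prior count of 2. The fit was tested on simulated data. Counting error was small for well counted genes and larger for genes under about 10 CPM.

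The labels give same-numbered libraries 1 harvest date, so the numbers pair libraries. Deviations from group means correlated at 0.249, 0.192 and 0.0647 in June, August and October, against -0.265 to 0.0776 for pairs of different date. The October value lay inside the range of the latter. Deviations cancel out within a group, so higher values for same-date pairs force lower ones for the others, and that range is no independent baseline. The biological coefficient of variation was 0.244, and 0.187 with the replicate block. Replicate libraries differed by far more than sampling noise (chi-square per gene of 7.11 to 22.5).

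Named genes are the 2 rising and 2 falling ones with the largest difference in group mean CPM among called genes whose groups did not overlap and whose 3 dates shared a direction. The comparison, the rule and the tests were chosen with earlier results of these data known. Alternatives were DESeq2 1.42.0, DESeq2 size factors, no low-count filter, the replicate block, the 6 libraries alone, strand ignored, and libraries or dates left out.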

Additional observations from a re-analysis of the deposited data

How the results depend on the processing

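Counts of calls depended on the setting. The excess of falling over rising genes was present in every alternative that left out no replicate. It was absent without any 1 library at 100 mM and with a whole date left out. The 480 genes called, 174 higher and 306 lower, became 1248, 409 and 839 with the replicate block, 1117, 372 and 745 from the 6 libraries alone, and 1396, 487 and 909 from those libraries with the block. DESeq2 gave 981, 310 and 671, and with the block 1682, 590 and 1092. With 1 library left out in turn, the counts ran from 70 to 616 called, 32 to 226 higher and 38 to 410 lower. With a whole date left out they ran from 0 to 210 called, 0 to 107 higher and 0 to 103 lower. These fits had fewer libraries, and the cause of the differences was not tested. Leaving out a library did not always lower the count, which was 616 without replicate 1 of 10 mM sucrose with NAA. The count was 467 with DESeq2 size factors, 561 without the low-count filter and 485 with strand ignored. The difference between sucrose effects without and with auxin was called for 0 genes by edgeR in every fit run on all 4 groups, for 1 by DESeq2 and for 8 by DESeq2 with the block. With 500 genes per direction in place of 200, the median difference in the date left out was 0.90 in June, 1.17 in August and 0.56 in October for rising genes and -1.14 in August for falling ones; a longer list takes in genes with weaker evidence. The difference in genes at 1 CPM or more, 27 with all libraries, turned to -17.3 without replicate 2 at 100 mM and to -71.2 without replicate 3 at 10 mM, in a range of -71.2 to 103.8 with a library left out, and no exact p fell below 0.1 in this design. No named gene changed direction under any setting. With libraries or dates left out this followed from their choice, since they were picked for groups that did not overlap. Gene counts under about 10 CPM gave wide errors, so changes there could pass uncalled.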
